A study of Homo sapiens with 24 samples.

Results

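PLC/PRF/5 is an established hepatocellular carcinoma (HCC) cell line with an epithelial phenotype. Transforming growth factor beta (TGFβ) was added to it alone, and expression was compared with that of untreated control cells. The 6 arrays concerned, out of 24 in the series, were the 3 TGFb arrays and the 3 control arrays of PLC/PRF/5, chosen by their labels only. In the TGFb group, cells were exposed for 16 h to recombinant human TGFβ1 at 1 ng/mL, and control cells received nothing. All cells, controls included, were serum starved overnight beforehand. The remaining groups used below were PLC/PRF/5 cells exposed for 16 h to galunisertib (LY2157299) at 10 µM, without or with TGFβ1 at 1 ng/mL, and SNU-449 cells, a mesenchymal-like HCC line, as untreated controls or with TGFβ1 at 1 ng/mL for 16 h, with 3 arrays each. The replicates were independent cultures. The comparison covers 1 line at 1 dose and 1 time of TGFβ1, in culture and without serum, and a lower level in such bulk RNA can come from fewer cells of a type or from less RNA per cell, which cannot be told apart.

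TGFβ binds a type II receptor kinase, which activates the type I receptor TGFBR1. The latter phosphorylates SMAD2 and SMAD3, which enter the nucleus with SMAD4 and act on target genes, among them inhibitors of the pathway itself. Galunisertib, a small molecule, blocks the kinase of TGFBR1. In hepatocytes and in early HCC, TGFβ is known for growth arrest and apoptosis, and in advanced HCC for epithelial to mesenchymal transition (EMT) and invasion.

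Levels are given as the log2 of a probe's background-subtracted intensity relative to the 75th percentile of its array, so that 0 is the level of that percentile. They compare arrays for 1 probe and not different genes. Calls of a change required more than 2-fold and an unadjusted P below 0.001 in a limma fit, and adjusted p-values are Benjamini-Hochberg values over all genes of the fit. "Rose" and "fell" are written for an adjusted p below 0.05. Inner spots are those in rows 41 to 344 and columns 11 to 154 of the 384 rows and 164 columns of the array. The others are edge spots. Of 58201 probes, 40296 had inner spots only, 17613 edge spots only and 292 both, and each result is given for all spots and separately for inner spots.

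The promoters of the 4 genes that mark this response, *SPP1*, *SKIL*, *SPTSSB* and *LTB*, and of *PMEPA1* and *TNFAIP3*, a SMAD-pathway inhibitor and an NF-κB-responsive gene, are shown because these genes carry the comparison below. Each is the 250 bases before the start of the gene in RefSeq, on the strand of the gene, in build GRCh38.p14. They lie at chr4:87975464-87975713 (+) for *SPP1*, chr3:170357465-170357714 (+) for *SKIL*, chr3:161371518-161371767 (-) for *SPTSSB*, chr6:31582426-31582675 (-) for *LTB*, chr20:57711473-57711722 (-) for *PMEPA1* and chr6:137867009-137867258 (+) for *TNFAIP3*. Capitals mark matches, on either strand, to the palindromic SMAD box GTCTAGAC, to the SMAD-binding element CAGACA, to the GC-rich motif GGCGCC, to the AP-1 motif TGANTCA or to the NF-κB motif GGGACTTTC. No matches overlap here.
SPP1: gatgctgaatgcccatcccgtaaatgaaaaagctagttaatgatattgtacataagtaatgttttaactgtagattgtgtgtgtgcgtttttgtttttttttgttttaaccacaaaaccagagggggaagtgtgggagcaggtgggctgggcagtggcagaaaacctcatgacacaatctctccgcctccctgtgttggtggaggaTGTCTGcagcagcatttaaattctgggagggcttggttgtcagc
SKIL: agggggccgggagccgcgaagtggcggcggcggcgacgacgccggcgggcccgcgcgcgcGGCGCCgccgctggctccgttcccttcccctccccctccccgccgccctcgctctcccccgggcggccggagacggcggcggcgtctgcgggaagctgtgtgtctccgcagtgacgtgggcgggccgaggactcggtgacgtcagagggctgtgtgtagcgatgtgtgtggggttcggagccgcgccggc
SPTSSB: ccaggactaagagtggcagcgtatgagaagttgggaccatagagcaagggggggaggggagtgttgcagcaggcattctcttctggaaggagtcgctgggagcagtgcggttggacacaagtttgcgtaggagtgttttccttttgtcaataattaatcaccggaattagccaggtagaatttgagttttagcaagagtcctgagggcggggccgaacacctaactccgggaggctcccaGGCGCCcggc
LTB: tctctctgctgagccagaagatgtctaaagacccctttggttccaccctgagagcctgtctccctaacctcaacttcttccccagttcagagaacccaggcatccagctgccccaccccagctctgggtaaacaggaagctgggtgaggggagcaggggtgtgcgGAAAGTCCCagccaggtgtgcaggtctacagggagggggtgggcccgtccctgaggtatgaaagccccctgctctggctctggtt
PMEPA1: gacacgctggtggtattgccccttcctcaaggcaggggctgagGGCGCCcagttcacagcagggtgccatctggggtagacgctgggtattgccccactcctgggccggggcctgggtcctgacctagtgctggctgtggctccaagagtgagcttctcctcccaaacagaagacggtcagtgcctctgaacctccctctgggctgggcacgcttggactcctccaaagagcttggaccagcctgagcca
TNFAIP3: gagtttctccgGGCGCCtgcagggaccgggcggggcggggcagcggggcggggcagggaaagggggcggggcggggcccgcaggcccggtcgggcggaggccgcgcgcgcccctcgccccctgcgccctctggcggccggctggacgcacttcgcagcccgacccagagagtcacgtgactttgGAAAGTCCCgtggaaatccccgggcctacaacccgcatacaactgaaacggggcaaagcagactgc
*SPP1* held CAGACA from 44 to 39 bases before the start. *SKIL*, *SPTSSB*, *PMEPA1* and *TNFAIP3* held GGCGCC, in *SPTSSB* from 10 to 5 and in *TNFAIP3* from 239 to 234 bases before it. *LTB* and *TNFAIP3* held GGGACTTTC, from 85 to 77 and from 66 to 58 bases before the start, read on the opposite strand. A promoter was found for 40 of 54 genes looked up, which are the 52 genes named by the size of their change, as markers or as called members of a list, and *SMAD7* and *FURIN*, added after their values were seen. GGCGCC lay in 13 of these 40 and in 16.1% of all 27305 promoters of the table, CAGACA in 4 of 40 and in 13.6%, and GGGACTTTC in 2 of 40 and in 0.315%. GTCTAGAC, held by 0.176% of all promoters, and TGANTCA, held by 6.6%, were found in none of the 40. A match is a run of letters and not a measured binding site.

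The 75th percentile of intensity was 145, 234 and 257 units on the control arrays and 219, 257 and 261 on the TGFb arrays, the dimmest being control replicate 1. Between 45.1% and 51.6% of probes were well above background on the 6 arrays. Replicates 1, 2 and 3 lay on 3 slides, 1 of each group per slide, which allows changes to be read within a slide. On every slide the control and galunisertib arrays lay in the first row and the arrays with TGFβ in the second, so that TGFβ and the slide row cannot be told apart. All 6 marker genes of PLC/PRF/5 (*SERPINA1*, *IGFBP1*, *RBP4*, *APOB*, *CDH1* and *BAAT*) were well above background on all 6 arrays, with a summed level of 94721% to 129123% of the 75th percentile in control cells and of 99221% to 120254% with TGFβ. Of 4 SNU-449 markers, *SNAI2* and the *CD44* probe that is bright in SNU-449 were at the floor on all 6 arrays. *LOXL2* and *SPARC* were well above background on all 6. The summed level was 46.9% to 52.2% in control cells and 58.1% to 65.9% with TGFβ. Of 17 blood, endothelial and stromal markers, *COL3A1*, *DCN*, *HBB*, *LUM*, *PDGFRA* and *PECAM1* were at the floor. *CD14*, *CD3D*, *CD79A*, *DES*, *PDGFRB*, *PTPRC* and *VWF* were well above background on all 6 arrays and *CD3E* and *CDH5* on some, while *CD68* and *LYZ* had no named probe. The summed level, led by *CD79A*, was 2231% to 4863% in control cells and 2506% to 3384% with TGFβ. *PDGFRB* rose by 0.68 and *CDH5* fell by 0.90 on the log2 scale. With normexp, another background correction, they changed by 0.49 and -0.385. The part of *PDGFRB* and *CDH5* in the results was not tested.

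TGFβ alone changed a limited set of genes in PLC/PRF/5. Of 16683 genes tested over all spots, 183 were called (1.1%), 128 higher (0.767%) and 55 lower (0.33%) than in control cells. Over inner spots, 112 of 12700 genes were called (0.882%), 84 higher (0.661%) and 28 lower (0.22%), and 110 genes were called in both. Where the adjusted p (limma, below 0.05) took the place of the unadjusted one, 205 genes (1.23%) passed over all spots and 118 (0.929%) over inner spots. All 183 and all 112 called genes had 3 TGFb arrays on one side of the 3 control arrays, so that they also moved the same way on each slide. The groups did not overlap in 38.4% of all genes tested and in 36.6% of those on inner spots. The P threshold alone would pass about 16.7 and 12.7 genes if none changed. Over all genes the median change was -0.04 on the log2 scale, and 0.21 without scaling of the arrays, where 300 genes were called higher and 26 lower over all spots, and 192 and 7 over inner spots.

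Location on the array moved with the response. Among genes represented by an inner probe only, 104 of 11538 were called (0.901%), and among those represented by an edge probe only, 76 of 4876 (1.56%). The SD of the log2 change over all genes was 0.30 for inner and 0.39 for edge probes. In cells that also received galunisertib, TGFβ had been added in separate cultures, and the comparison of TGFβ with galunisertib against galunisertib alone shares no array with TGFβ against control. There, TGFβ changed 48 genes over all spots (0.288%) and 5 over inner spots (0.0394%). None of the 104 called genes with an inner probe changed by more than 2-fold in that comparison, and 18 of the 76 with an edge probe did, 16 of them called. The part of array location in the edge results was not tested. Values below come from inner spots, or from both kinds together for the few probes that have both, except where an edge spot is named and except for *AHSG*, *CXCL1*, *DUSP6*, *DUSP8*, *DUSP10*, *FN1*, *G6PC1*, *GDF15*, *HBEGF*, *IFIT2*, *IL11*, *ITGB4*, *JUNB*, *KLF10*, *MCM2*, *MCM6*, *MYL9*, *NDRG1*, *ONECUT2*, *SMAD3*, *SMAD4*, *ST14*, *TGFB1*, *TGFBR2*, *TGIF1*, *TGIF2*, *TNFRSF12A* and *VIM*, which were represented by edge probes.

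**Figure D1:**
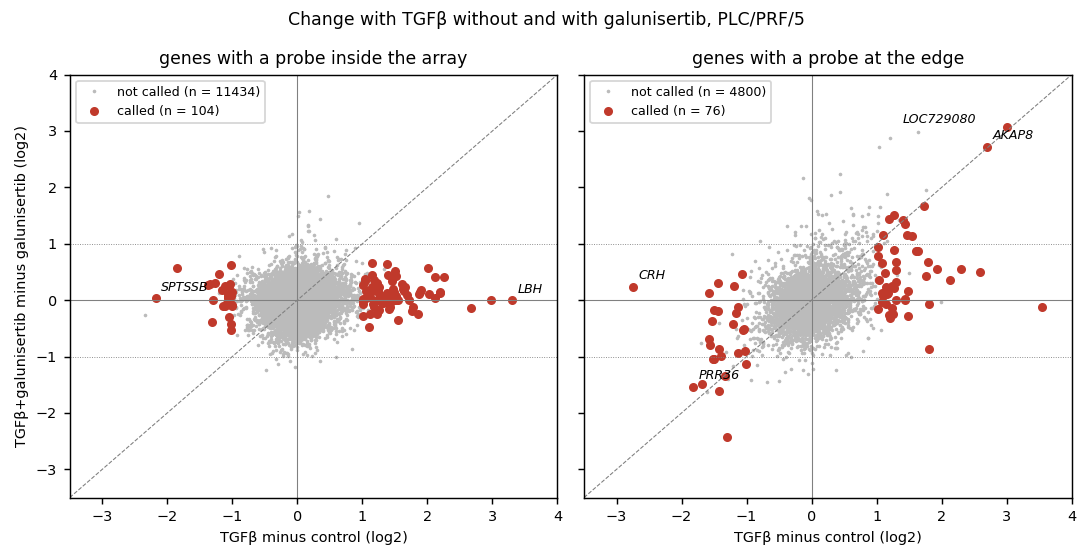
Each point is a gene, with the log2 change on TGFβ against control on the horizontal axis and the log2 change on TGFβ with galunisertib against galunisertib on the vertical axis, for probes inside the array (left) and at its edge (right). Called genes are red, the dotted lines mark a 2-fold change with galunisertib and the dashed line equal changes. The 104 called genes on the left lie between the dotted lines, and 18 of the 76 on the right lie beyond them, among them *LOC729080* and *AKAP8* close to the dashed line.

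The 4 marker genes of the response were measured on inner spots, *SPP1* on edge spots as well, and all 4 moved far beyond the spread between replicates. *SPP1* encodes osteopontin, a secreted phosphoprotein that binds integrins and CD44. Its log2 level was -2.26, -2.13 and -2.40 on the control arrays and 0.38, -0.17 and 0.00 on the TGFb arrays. Every TGFb array was far above every control array. The mean rose from -2.26 ± 0.14 to 0.07 ± 0.28 (SD, n = 3 each), by 2.33 (standard error 0.15, limma, adjusted p = 6.78e-06), and by 2.34 over its inner spots. On slides 1, 2 and 3 the differences were 2.64, 1.95 and 2.40. With galunisertib present, TGFβ still raised *SPP1* by 0.78 (limma, adjusted p = 0.018), and the loss of 1.55 on the log2 scale was itself called (limma, adjusted p = 0.0022). Of the receptors, *ITGAV*, an integrin chain that binds osteopontin, rose by 0.47, and 5 of the 7 tested members of a list of osteopontin and its receptors did not pass, with a change of 0.26 for *ITGB1*.

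*SKIL* encodes SnoN, a co-repressor that binds SMADs and is itself induced by TGFβ. It stood at -0.50, -0.53 and -0.28 on the control arrays and at 1.13, 1.21 and 1.24 on the TGFb arrays. The groups did not overlap, and the TGFb arrays lay within a narrow range. The rise was 1.63 (standard error 0.11, limma, adjusted p = 8.55e-06), with 1.63, 1.74 and 1.52 on the 3 slides. In the presence of galunisertib it came to 0.20 (limma, adjusted p = 0.23), a difference of 1.43 (limma, adjusted p = 0.00063). *SKIL* stood lower on the galunisertib arrays, at -1.04, -1.24 and -0.90, than on any control array.

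*SPTSSB*, which encodes a small activating subunit of serine palmitoyltransferase, the first enzyme of sphingolipid synthesis, went the other way. Its control arrays stood at 0.10, 0.03 and 0.02 and its TGFb arrays at -2.28, -1.92 and -2.18. The control arrays were nearly identical, and all TGFb arrays were below them. It fell by 2.18 (standard error 0.10, limma, adjusted p = 1.17e-06). With galunisertib, the change was 0.03, and the difference of -2.21 was called (limma, adjusted p = 3.16e-05).

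*LTB* encodes lymphotoxin beta, a membrane ligand of the tumor necrosis factor family. It read 1.19, 0.88 and 1.23 on the control arrays and 2.58, 2.77 and 2.35 on the TGFb arrays. The lowest TGFb array was above the highest control array. Its rise of 1.47 (standard error 0.13, limma, adjusted p = 5.69e-05) varied between slides, at 1.40, 1.89 and 1.12. With galunisertib the change was 0.19, and the difference of 1.28 was called (limma, adjusted p = 0.0029). Over all spots, the 4 markers kept their calls under each of 26 alternative settings of the processing, though *SPP1* rose by 1.33 only with normexp, another background correction.

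**Figure D2:**
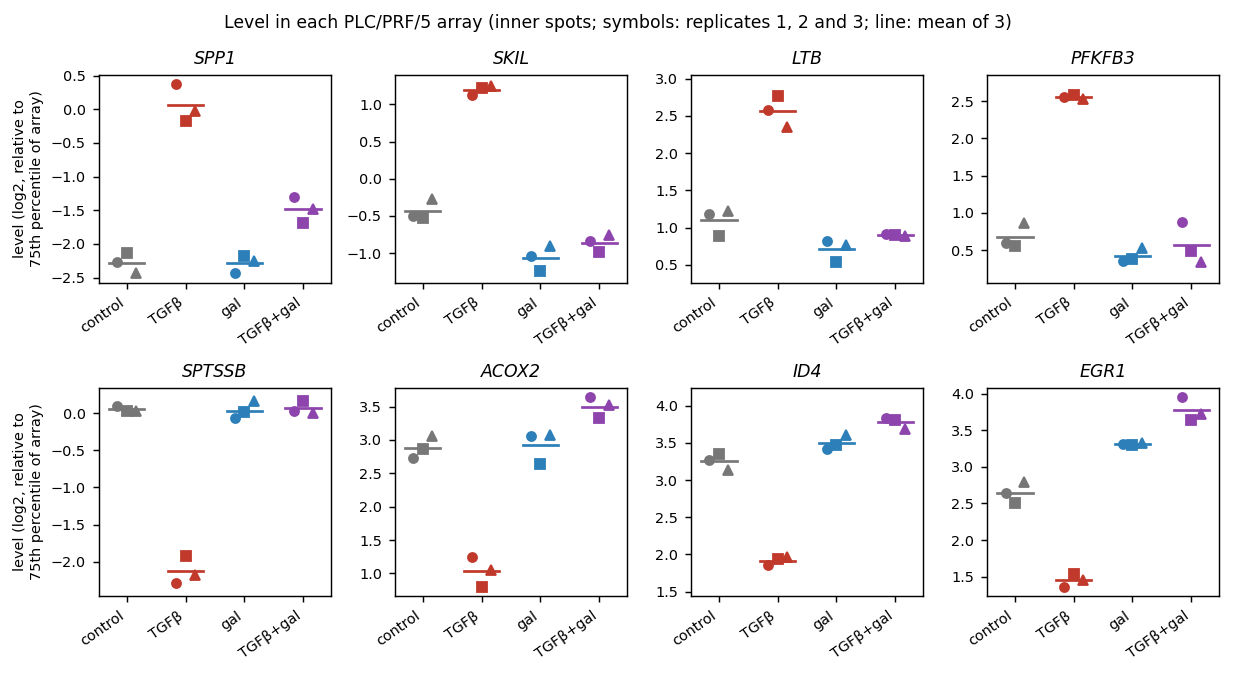
Log2 level relative to the 75th percentile of the array for 8 genes on each of the 12 PLC/PRF/5 arrays, from inner spots, with a symbol per replicate and a line at the mean of each group of 3. *SPP1*, *SKIL*, *LTB* and *PFKFB3* stand higher and *SPTSSB*, *ACOX2*, *ID4* and *EGR1* lower on the TGFb arrays than on all control arrays. With galunisertib, *SPP1* rises by 0.80 and *SPTSSB* differs by 0.03.

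Several inhibitors that TGFβ induces against its own pathway rose. Of 12 feedback regulators listed, 10 were tested, 2 were called (*SKIL* and *PMEPA1*), 6 rose and none fell, with a median log2 change of 0.54 against -0.04 for all genes. Over inner spots, 5 of 8 rose. Only 3 of the 10 rose, and none fell, both with scaling to the median and without scaling. *PMEPA1* encodes a membrane protein that keeps SMAD2 and SMAD3 from the receptor. On an edge spot it lay below the well-above-background limit on all control arrays and stood at -1.27, -1.14 and -1.43 with TGFβ, at least 6.02-fold higher (limma, adjusted p = 0.00072). Its inner probe lay at the floor on all control arrays and at -1.80, -1.51 and -2.08 with TGFβ, at least 4.34-fold higher (limma, adjusted p = 9.25e-07). With normexp the change was 0.88 over all spots and over inner spots, and not called. *SMAD7*, the inhibitory SMAD, had an edge probe at 1.08, 0.94 and 1.06 in control cells and 1.73, 1.84 and 1.90 with TGFβ, a rise of 0.80 (limma, adjusted p = 0.0009) that stayed under 2-fold. *SMURF1* and *NEDD4L*, ubiquitin ligases that target SMADs and receptors, rose by 0.62 and 0.60, and *BAMBI*, a decoy receptor, by 0.47. The values of *SKI*, *SMAD6*, *TGIF1* and *TGIF2*, which did not pass, were 0.36, 0.25, 0.26 and 0.06.

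Textbook SMAD targets responded in part. Of 20 tested among 26 listed, 1 was called, 9 rose and 2 fell, with a median of 0.36, and over inner spots 5 of 14 rose and 1 fell, with none called. In all, 13.5% of genes had an adjusted p below 0.05, and 1044 rose and 1207 fell. These counts, and with them those of the lists, depend on the scaling of the arrays. They were 329 and 168 with scaling to the median and 460 and 36 without scaling. Of the SMAD targets, 6 rose and 1 fell with the former, and 7 rose and none fell with the latter. *PDGFA*, a growth factor for mesenchymal cells, rose by 1.08 on an edge spot (limma, adjusted p = 0.0016) and by 0.78 on an inner one, and was not called with normexp (0.92). The AP-1 subunit *JUNB* rose by 0.92, *KLF10* (a TGFβ-inducible early gene) by 0.82, *GADD45B* by 0.74, the matrix protein *TGFBI* by 0.73, *PDGFB* by 0.72 and *IL11* by 0.67. With normexp *JUNB* changed by 0.37 and *KLF10* by 0.72. A matricellular and a growth factor gene ran against these rises. *CCN2*, the connective tissue growth factor, stood at 2.74, 2.50 and 2.99 in control cells and 1.84, 2.20 and 1.74 with TGFβ, a fall of 0.82 (limma, adjusted p = 0.0091). *HBEGF* fell by 0.81. The CDK inhibitor genes *CDKN1A* and *CDKN2B*, changed by 0.15 and 0.06, did not pass. Beyond the called members and the 4 largest changes of each list, members named here and below were picked after their values were seen.

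The ID genes fell, and most signaling SMADs did not pass the test. ID proteins bind and block basic helix-loop-helix transcription factors, and their genes are direct targets of bone morphogenetic protein (BMP) signaling. Of 10 tested members of the list of SMADs and ID genes, 3 were called, all lower, 4 fell and 1 rose. Over inner spots, 7 were tested, 2 were called lower, 4 fell and none rose. Over all spots, 3 fell with scaling to the median and 2 without scaling, and none rose. *ID3* read 4.50, 4.48 and 4.58 on the control arrays and 2.93, 3.06 and 2.97 on the TGFb arrays, on an edge spot, a fall of 1.54 (limma, adjusted p = 1.21e-06). *ID4* was at 3.27, 3.35 and 3.14 and fell to 1.85, 1.93 and 1.97, by 1.34 (limma, adjusted p = 6.09e-06), on an inner spot. *ID1*, bright at 6.91, 7.07 and 7.16, was at 5.93, 6.09 and 6.10 with TGFβ. In each of these genes the arrays of a group lay close together and far from the other group. *ID1* fell by 1.00 (limma, adjusted p = 0.0007), at the 2-fold limit, and lost its call in 11 of 26 alternative settings. Among these were no scaling, scaling to the median or over bright probes, quantile normalization and the authors' normalized values. The change was -0.99 without control replicate 2, -0.95 without control replicate 3 and -0.95 without TGFb replicate 1 or with normexp. *ID2* fell by 0.67. *SMAD3* rose by 0.56, and *SMAD2* and *SMAD4* changed by 0.16 and 0.26 without passing.

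Ligands, receptors and proteins that hold TGFβ latent formed the next group, with 27 of 33 tested, 1 called, 9 higher and 2 lower, and a median of 0.20. The counts were 5 higher and 2 lower with scaling to the median, and 7 higher and none lower without scaling. *INHBE*, which encodes the activin beta E subunit made by hepatocytes, stood at -1.85, -2.10 and -2.10 in control cells and -1.02, -0.60 and -0.91 with TGFβ. It rose by 1.17 (limma, adjusted p = 0.0019), and was not called with normexp (0.61). The activin-binding inhibitors *FSTL3* and *FST* rose by 0.93 and 0.75, the BMP receptor *BMPR2* by 0.90, the ligand *BMP6* by 0.76 and *TGFB1* by 0.74. *BMPR2* had a mean level of -3.46 over the PLC/PRF/5 arrays, near the floor. With normexp it changed by 0.26, and *FSTL3* by 0.79. *LTBP1* and *LTBP3*, which bind latent TGFβ to the matrix, rose by 0.67 and 0.40. *GDF15*, a stress-induced ligand of the family, fell by 0.83. The activin receptor *ACVR1B* was lower by 1.03 on an edge spot (limma, adjusted p = 0.027), with -0.85 when galunisertib was present and -0.49 with normexp. The TGFβ receptor genes *TGFBR1* and *TGFBR2* changed by 0.26 and -0.04, and neither passed. *FURIN*, picked after its values were seen, encodes a convertase that cleaves the TGFβ precursor. It was at 0.12, 0.09 and 0.12 in control cells and 1.84, 1.87 and 1.94 with TGFβ, a rise of 1.77 (limma, adjusted p = 2.09e-06).

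Among genes seen well above background on all 6 arrays, the 10 largest rises on inner spots, *SPP1* included, spanned 1.88 to 2.34 on the log2 scale, and each exceeded its spread between replicates. *CLEC16A*, a regulator of mitophagy, gave the most precise one, from 1.31, 1.42 and 1.47 to 3.59, 3.43 and 3.54. It rose by 2.12 (standard error 0.07, limma, adjusted p = 1.64e-07), and a second probe gave 1.68. *BMF*, a BH3-only protein that promotes apoptosis, was at -0.05, 0.21 and 0.24 in control cells and at 2.42, 2.23 and 2.35 with TGFβ. It rose by 2.20, and an edge probe gave 1.52. *PFKFB3*, which makes the activator of glycolysis fructose 2,6-bisphosphate, went from 0.59, 0.56 and 0.86 to 2.55, 2.58 and 2.53. The 3 TGFb arrays were nearly equal, and the rise was 1.88, with 1.26 on a second probe. Also among the 10 were the kinase *ALPK2* (2.26), the zinc-finger factor *KLF7* (2.20), *TSC22D3* (2.11), known as the glucocorticoid-induced leucine zipper, the histone variant *MACROH2A2* (2.02), *FAM20A* (2.02), a partner of the secretory kinase FAM20C, and the ubiquitin ligase *NEURL3* (1.91). Their adjusted p-values ran from 1.64e-07 for *CLEC16A* to 5.2e-05 for *KLF7*. With normexp *KLF7* changed by 0.88 and was not called, and *ALPK2* changed by 1.10 and was. On inner spots and with galunisertib present, the changes of these 10 genes were between 0.04 for *CLEC16A* and 0.80 for *SPP1*. The difference was called for all 10, which were chosen by the TGFβ change that is part of it.

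Some genes rose with TGFβ from below background on every control array, and their change is a lower bound. *LBH*, a transcription cofactor, lay at the floor of -4.13 on all 3 control arrays and at -1.04, -0.54 and -0.91 with TGFβ, at least 8.47-fold higher (limma, adjusted p = 1.64e-07). It stayed at the floor on all galunisertib arrays, with and without TGFβ. With normexp its change was 1.46 and still called. On edge spots, *IGF2*, an insulin-like growth factor, was at least 4.81-fold and *C11orf86* at least 3.01-fold higher. Neither was called with normexp, at 0.59 and 0.57, and *C11orf86* was also not called on the authors' normalized values. No called gene was below background on all 3 TGFb arrays.

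The largest falls on inner spots came after *SPTSSB*. *ACOX2*, the peroxisomal oxidase that shortens bile acid precursors, dropped from 2.73, 2.87 and 3.06 to 1.24, 0.80 and 1.05. Its fall of 1.85 (standard error 0.15, limma, adjusted p = 4.62e-05) was accompanied by a rise of 0.57 with galunisertib, and the difference of -2.43 was called. *EGR1*, an immediate early transcription factor, went from 2.64, 2.51 and 2.80 to 1.36, 1.54 and 1.45, a fall of 1.20, and rose by 0.46 with galunisertib. In both genes the sign of the change was opposite when the receptor kinase was inhibited. The prostaglandin E2 receptor *PTGER4* fell by 1.37, the hyaluronan-degrading *CEMIP* by 1.26, *TMEM178A* by 1.15, the transporter *SLCO4A1* by 1.15 and *FGFBP3*, which carries fibroblast growth factors, by 1.11. With normexp *CEMIP* (-0.78), *TMEM178A* (-0.67), *SLCO4A1* (-0.85) and *FGFBP3* (-0.52) were not called. Without scaling of the arrays *EGR1* (-0.95), *TMEM178A*, *SLCO4A1* and *FGFBP3* were not called. The non-coding *lnc-NDFIP1-3* fell by 1.31. For 9 of these 10 genes, *SPTSSB* and *ID4* included, the difference made by galunisertib was called, and for *lnc-NDFIP1-3* it was -0.91 (limma, adjusted p = 0.068). These 10 were likewise chosen by the TGFβ change that is part of the difference.

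**Figure D3:**
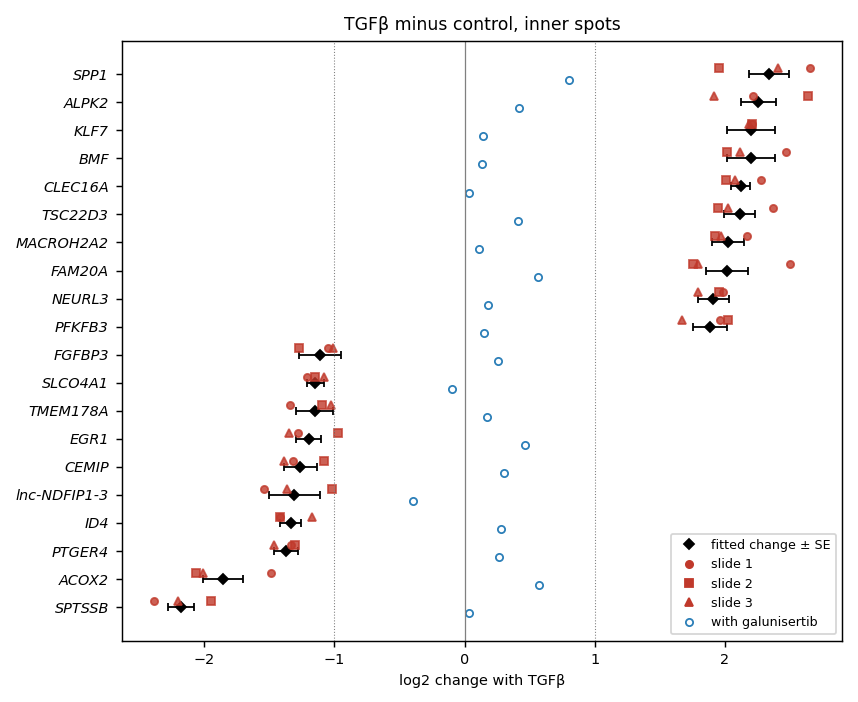
Log2 change of the 10 largest rises and 10 largest falls among called genes well above background on all 6 arrays, from inner spots. Black diamonds with bars give the fitted change and its standard error, red symbols the difference within each of the 3 slides and open blue circles the change on TGFβ when galunisertib was present. The red symbols of a gene lie on one side of 0 throughout, and the blue circles lie between -0.40 and 0.80.

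On edge spots, *CRH* had the largest fall. It encodes corticotropin-releasing hormone and was at 6.06, 6.05 and 6.14 in control cells and 3.25, 3.40 and 3.38 with TGFβ. Groups of such narrow range were 2.74 apart (standard error 0.10, limma, adjusted p = 2.65e-07), and with galunisertib the change was 0.24, a called difference of -2.98. *SSTR2*, a somatostatin receptor, fell by 1.58, with a called difference of -1.71 by galunisertib, while its inner probe changed by -0.56 (limma, adjusted p = 0.17), and with normexp it was not called (-0.77). For other edge genes the difference was not called, and *LOC729080* and *AKAP8* had a change of similar size with the inhibitor. *LOC729080* stood at -2.75, -0.65 and -0.54 in control cells and 1.59, 1.77 and 1.72 with TGFβ, 3.01 higher, and was 3.07 higher with galunisertib. *AKAP8*, a nuclear anchor of protein kinase A, went from -0.19, 0.02 and 0.29 to 2.75, 2.72 and 2.76, 2.70 higher, and was 2.72 higher with galunisertib. The difference was -0.06 (standard error 0.70) for *LOC729080* and -0.02 (standard error 0.34) for *AKAP8*. In SNU-449 these changes were 3.11 and 2.64. *VGLL3*, a cofactor of TEAD factors, had a change of -1.52 without galunisertib, *DEPP1* of -1.56 and *SLC25A25* of -1.58. *VGLL3*, not called with normexp (-0.96), changed by -1.04 with galunisertib, where *DEPP1* changed by -0.79 and the mitochondrial carrier *SLC25A25* by -0.70.

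Probes of the same gene did not always agree. *PRR36* had 4.84, 3.77 and 3.78 in control cells and 2.46, 2.50 and 1.98 with TGFβ on an edge probe, a change of -1.82, and -1.53 with galunisertib. Its inner probe changed by 0.23 (limma, adjusted p = 0.14), and this probe stands for the gene when control replicate 1 is left out, at 0.21. *PHF21B* changed by 1.54 on an edge probe and by -0.36 on an inner one, and *OLFML2A* by 1.27 and -0.12 on 2 inner probes. *lnc-LRGUK-1*, with an edge probe only, changed by -1.68, and by -1.49 with galunisertib. It was no longer called without TGFb replicate 1 (-1.83), 2 (-1.48) or 3 (-1.73). Of 37 called genes with more than 1 tested probe, 15 had every probe called and 3 had a probe of the opposite sign. Of the 183 genes called over all spots, 65 had no inner probe tested.

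None of the tested EMT genes was called after 16 h, where 1.1% of all genes were. An adjusted p below 0.05 was reached by 28.6% of the transcription factors, 27.3% of the mesenchymal and 15.8% of the epithelial genes, against 13.5% of all genes. Of 7 tested among 15 EMT transcription factors, 1 rose and 1 fell. *SNAI1*, the Snail repressor, stood at -0.64, -0.79 and -0.60 in control cells and at -1.24, -1.19 and -1.32 with TGFβ, a fall of 0.57 (limma, adjusted p = 0.0015), while *SOX4* rose by 0.49. Of 11 tested among 26 mesenchymal genes, 3 rose and none fell. They were *CDH2* (N-cadherin, 0.51), the collagen cross-linking enzyme *LOXL2* (0.60) and *COL5A2* (0.40), and no change reached 2-fold. *VIM* (vimentin) and *FN1* (fibronectin) changed by 0.10 and 0.27, and neither passed. Of 19 tested epithelial genes, the claudin *CLDN4* rose by 0.64, *CLDN1* fell by 0.59 and the protease *ST14* fell by 0.54. *CDH1*, E-cadherin, was 0.22 higher without passing. With normexp the changes shrank to 0.15 for *SOX4*, 0.19 for *LOXL2* and 0.11 for *CLDN4*. Those of *SNAI1*, *CDH2*, *COL5A2*, *CLDN1* and *ST14* were -0.48, 0.42, 0.39, -0.55 and -0.43 there. The medians were 0.07, 0.27 and 0.14 for the 3 lists. Of these genes 1 epithelial one passed with scaling to the median, and none did without scaling.

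A few actin and matrix genes rose. Of 20 tested actin cytoskeleton genes, 2 were called and 5 rose in all, with a median of 0.25. Both with scaling to the median and without scaling, 2 rose. *TAGLN2*, an actin-binding protein of the calponin family, was at 1.90, 1.72 and 1.51 in control cells and at 2.91, 3.21 and 2.89 with TGFβ, and rose by 1.30. *TPM1*, a tropomyosin, was at 3.72, 3.95 and 3.94 and at 4.86, 5.06 and 5.02, and rose by 1.11, with 1.01 and 1.19 on its other probes. The groups did not overlap in either gene. *MYL9*, the myosin light chain, and *ZYX*, a focal adhesion protein, rose by 0.56 and 0.45. Of 24 tested genes for basement membrane, integrins and matrix proteolysis, 1 was called (*SERPINE2*), 3 rose (12.5%) and none fell, with a median of 0.18. Among all genes 13.5% had an adjusted p below 0.05 and 6.26% rose. Of the 24, 1 rose and none fell both with scaling to the median and without scaling. *SERPINE2*, an inhibitor of serine proteases, went from 1.81, 1.98 and 1.98 to 3.25, 3.40 and 3.37, a rise of 1.42 (limma, adjusted p = 6.78e-06). The integrin chain *ITGB4* rose by 0.52. *LOXL4*, picked after its values were seen, encodes another collagen cross-linking enzyme and rose by 1.50.

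None of the listed hepatocyte genes was called, where 1.1% of all genes were. An adjusted p below 0.05 was reached by 39.3% of those tested, against 13.5% of all genes. Outside the list, *ACOX2* and *FABP1* (-1.02), a fatty acid-binding protein of liver, were called. *FABP1* was picked after its values were seen. Of 28 tested members of the list, 9 fell and 2 rose, with a median of -0.19. With scaling to the median 2 fell and none rose, and none passed without scaling. Over inner spots, 6 of 20 fell and 1 rose, with a median of -0.10. On the control arrays *ALB*, albumin, stood at 0.60, 0.34 and 0.52 and on the TGFb arrays at -0.21, -0.63 and -0.50, a fall of 0.94 on an edge spot. The fetuin gene *AHSG* fell by 0.86, and the apolipoproteins *APOA2* and *APOB* by 0.84 and 0.66. With galunisertib these 4 genes changed by 0.51, 0.69, 0.20 and 0.23. *VTN* (vitronectin) and *G6PC1* rose by 0.55 and 0.42. Among 14 tested hepatocyte transcription factors, *HLF* fell by 0.70, *NR0B2* by 0.63 and *ONECUT2* by 0.57, *NR5A2* rose by 0.61, and *HNF4A* changed by 0.21 without passing. Of these factors none passed with scaling to the median and 1, higher, without scaling. The medians of the hepatocyte lists turned positive without scaling of the arrays, at 0.06 and 0.16, yet stayed below the 0.21 of all genes.

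Genes that respond to NF-κB held *LTB* and 2 further calls. Of 22 tested, 6 rose and none fell, with a median of 0.32. Over inner spots, 4 of 19 rose, with a median of 0.26. Over all spots, 3 rose and none fell both with scaling to the median and without scaling. *TNFAIP2* was at 1.64, 1.70 and 1.81 in control cells and at 2.83, 2.84 and 2.84 with TGFβ, a rise of 1.12 (limma, adjusted p = 0.00011). *TNFAIP3*, the A20 inhibitor of NF-κB, was at -0.29, -0.48 and -0.32 and at 0.49, 0.69 and 0.75, and rose by 1.01. It fell short of 2-fold with normexp (0.77) and without control replicate 2 (0.95), TGFb replicate 2 (0.99) or TGFb replicate 3 (0.96). *NFKBIA*, the IκBα inhibitor, and *BIRC3*, an inhibitor of apoptosis, rose by 0.52 and 0.60, the latter on an edge spot with 0.54 in the presence of galunisertib. *CXCL1* and *CXCL8* changed by 0.46 and 0.40 without passing. In the TNF family, of 11 tested genes *LTB* and the receptor *TNFRSF12A* (0.43) rose and the decoy receptor *TNFRSF10D* fell by 0.41. Of these 11, 1 rose and none fell both with scaling to the median and without scaling. *UBD*, a ubiquitin-like modifier picked after its values were seen, rose by 1.52.

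Of 31 tested sphingolipid genes, 3 were called and 25.8% had an adjusted p below 0.05, against 13.5% of all genes. The called ones were *SPTSSB* and a pair of sphingosine 1-phosphate genes. *S1PR3*, a receptor of sphingosine 1-phosphate, was at 1.19, 1.10 and 1.01 in control cells and at 2.30, 2.19 and 2.26 with TGFβ, a rise of 1.15. *SPNS2*, which exports sphingosine 1-phosphate, was at 1.10, 1.01 and 1.17 and at -0.19, 0.19 and 0.05, a fall of 1.07. Neither gene had overlapping groups, but *SPNS2* was no longer called without TGFb replicate 1 (-0.97) or with normexp (-0.82). In total 4 members rose and 4 fell, with a median of 0.06, against 1 and 2 with scaling to the median and 1 and 1 without scaling. *SPTSSA* and *SPTLC1*, which belong to the same enzyme as *SPTSSB*, changed by -0.09 and 0.07, and neither passed.

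Some feedback inhibitors of mitogen-activated protein kinase (MAPK) signaling fell. In the list of AP-1, EGR and MAPK feedback genes, 21 were tested, 4 called lower, 8 fell and 2 rose, with a median of -0.18, against 6 and none with scaling to the median and 2 and none without scaling. Beside *EGR1*, the called ones were *SPRY4*, *DUSP5* and *SPRY1*. *SPRY1*, a Sprouty inhibitor of growth factor receptors, stood at 3.92, 3.90 and 3.87 in control cells and at 2.81, 3.00 and 2.82 with TGFβ, a fall of 1.02 that missed 2-fold without TGFb replicate 1 (-0.98) or 3 (-0.99). Its call was lost in 9 of 26 alternative settings, among them no scaling, scaling to the median and quantile normalization. *SPRY4* fell by 1.21 on an edge spot, and its inner probe gave -0.27 (limma, adjusted p = 0.53). *DUSP5*, a phosphatase of ERK, was at -0.69, -0.60 and -0.34 and at -1.96, -1.24 and -1.65, and fell by 1.07, with -0.97 without control replicate 3 and -0.90 without TGFb replicate 1. *DUSP6* and *DUSP4* fell by 0.97 and 0.78 and *FOS* by 0.72. With normexp *SPRY1* (-0.84), *SPRY4* (-0.93) and *DUSP5* (-0.79) were not called. The inhibitors *DUSP1*, *DUSP8*, *DUSP10*, *SPRED1*, *SPRED2* and *SPRY2* did not pass, with changes of 0.29, -0.13, 0.05, -0.18, -0.05 and -0.16. Without scaling the median of the list was 0.08, still below that of all genes.

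Of 27 tested cell cycle genes, none was called, where 1.1% of all genes were. In the list 4 fell (14.8%) and none rose, with a median of -0.18. Among all genes 13.5% had an adjusted p below 0.05 and 7.23% fell. None of the 27 passed with scaling to the median or without scaling. The 4 that fell were all subunits of the replicative helicase, *MCM3* (-0.53), *MCM2* (-0.45), *MCM7* (-0.40) and *MCM6* (-0.39). Of 10 CDK inhibitors and growth regulators, *MYC* fell by 0.78 and *CDC25A* by 0.45, and *CDKN1C*, which encodes the p57 inhibitor, rose by 0.92 from -0.47, -0.91 and -0.39 to 0.38, 0.19 and 0.40. Of these 10, 1 rose and none fell both with scaling to the median and without scaling. The proliferation marker *MKI67* changed by -0.16 without passing.

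In Notch and Wnt signaling, 21 genes were tested, 1 was called, 5 rose and 1 fell. Both with scaling to the median and without scaling, 4 rose and none fell. The Notch target *HEY1* rose by 1.23, from -1.82, -1.69 and -1.48 to -0.53, -0.31 and -0.47, and was not called with normexp (0.73). *HES1* was 0.94 higher on an edge spot, and 1.17 higher with galunisertib. *WNT11* and the Wnt inhibitor *DKK1* rose by 0.91 and 0.59. With normexp *HES1* and *WNT11* each changed by 0.17 only. *HES1* had a mean level of -3.38 over the PLC/PRF/5 arrays, near the floor. Of 11 tested hypoxia genes, *PFKFB3* and *ADM* were called and *NDRG1* rose by 0.75, while *SLC2A1*, the glucose transporter, fell by 0.58 and *VEGFA* changed by -0.12 without passing. No hypoxia gene fell with scaling to the median, where 2 rose, or without scaling, where 3 rose. *ADM*, the vasodilator adrenomedullin, rose by 1.09, from 4.81, 4.98 and 5.26 to 6.01, 6.13 and 6.18. It was no longer called without control replicate 1 (0.98). In the remaining lists no gene was called, where 1.1% of all genes were. An adjusted p below 0.05 was reached by 19% of the cholesterol and fatty acid, 31.2% of the stress and 20% of the interferon genes. For all genes it was 13.5%. In all, 4 of 21 cholesterol and fatty acid synthesis genes fell, *INSIG1* by 0.71, and 5 of 16 genes of the endoplasmic reticulum and amino acid stress response, *TRIB3* by 0.58 and the cystine transporter *SLC7A11* by 0.51. No member of these 2 lists passed with scaling to the median or without scaling. Among 15 tested interferon-responsive genes, *IFIT1* and *IFIT2* fell by 0.89 and 0.78, and changed by -0.64 and -0.31 with normexp. Of the 15, 1 fell and none rose with scaling to the median, and 1 rose and none fell without scaling. The medians of the cell cycle, cholesterol and stress lists, -0.18, -0.18 and -0.20, were 0.07, 0.07 and 0.05 without scaling.

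**Figure D4:**
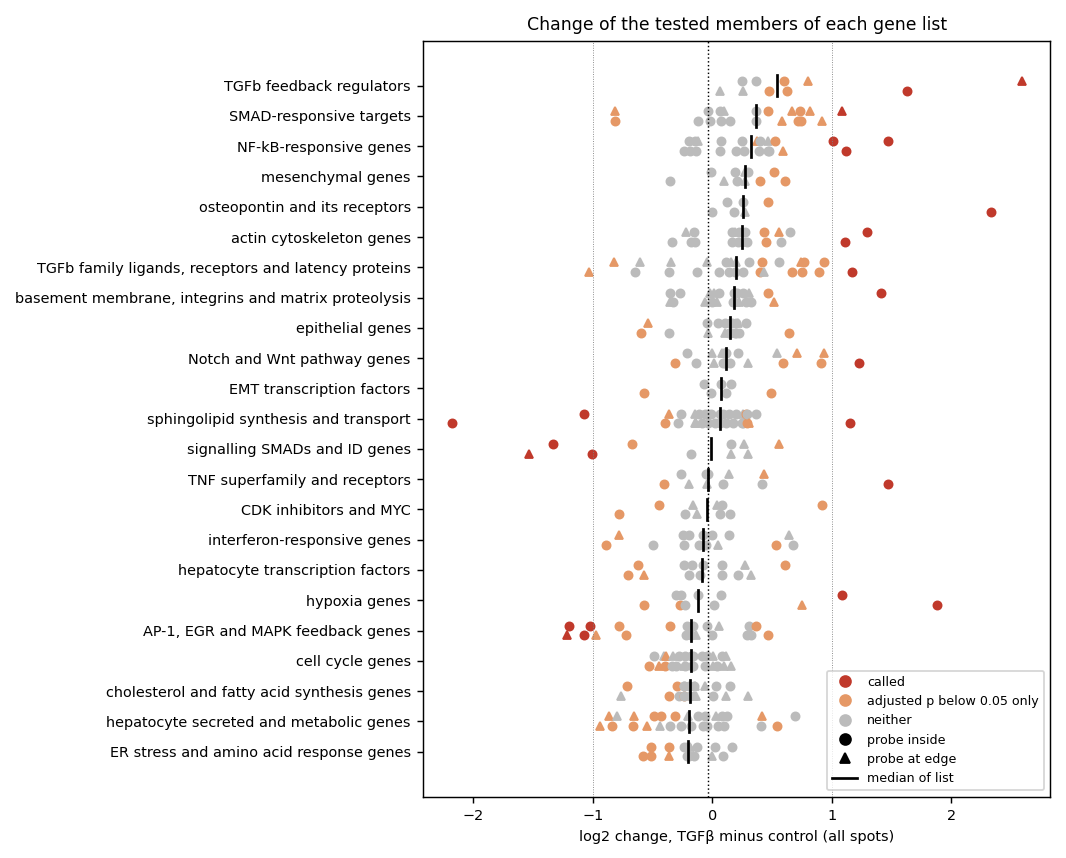
Log2 change, TGFβ minus control, of the tested members of each gene list over all spots. Red marks called genes, orange an adjusted p below 0.05 only and grey neither, with circles for probes inside the array or with spots in both places and triangles for edge probes. The bar is the median of the list and the dotted line near 0 that of all genes. The feedback regulators have the highest median, 0.54, and the genes of endoplasmic reticulum and amino acid stress the lowest, -0.20.

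Whether the TGFβ change differed with galunisertib was tested as an interaction over the 12 PLC/PRF/5 arrays. The difference was called for 199 of 16683 genes over all spots (1.19%) and for 151 of 12700 over inner spots (1.19%). Of the 104 genes called for TGFβ with an inner probe, 73 had a called difference and 60 kept the sign of their change with galunisertib. Of the 76 with an edge probe, 29 had a called difference and 58 kept the sign. Both sets were chosen by a large TGFβ change that is itself part of the difference, which favors called differences among them. Among the feedback regulators, the change of *SMAD7* was -0.31 with galunisertib (difference 1.10, limma, adjusted p = 0.0024), while that of *PMEPA1* was 0.49 with a difference of 2.10 (limma, adjusted p = 0.023) that was not called on its edge spot. Its inner probe was at the floor on all galunisertib arrays, with and without TGFβ. *ID3* still fell by 0.36 with galunisertib (limma, adjusted p = 0.021), and *S1PR3* and *SPRY1* changed by 0.44 and -0.43. *FURIN*, *LOXL4* and *NEURL3* had differences of 1.90, 1.50 and 1.73, all called.

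The response was set against that of SNU-449 to the same TGFβ1, with an interaction over 24 arrays. Of 17900 genes, 410 had a called difference (2.29%), and TGFβ changed 450 genes in SNU-449 (2.51%) in that fit. Of the 410 genes, 40 were not well above background on any control or TGFb array of SNU-449. *SPP1* changed by -0.44 in SNU-449, 2.77 less than in PLC/PRF/5 (limma, adjusted p = 2.3e-08). *CLEC16A* changed by 0.04, a difference of 2.08, and *ALPK2* by 0.30, a difference of 1.96. *TNFAIP2* and *ADM* fell in SNU-449 by 0.63 and 0.66, and both differed by 1.75. *ID1* and *ID3* rose there by 1.72 and 1.08, and differed by -2.72 and -2.62, so that the lines moved in opposite directions. *CCN2* and *SNAI1* rose in SNU-449 by 1.53 and 3.40, differences of -2.34 and -3.97 that were picked out after the values were seen. For other genes no difference was called. *SKIL* rose by 0.93 in SNU-449, and the difference was 0.70 (standard error 0.33, limma, adjusted p = 0.24). *SERPINE2*, *SMAD7*, *BMF* and *FURIN* rose there by 1.23, 0.65, 1.41 and 1.99, with differences of 0.19, 0.15, 0.79 and -0.22 that were not called. *SPTSSB* and *CRH* were not well above background in SNU-449 with or without TGFβ, and *LTB* on 1 of 6 arrays only.

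**Figure D5:**
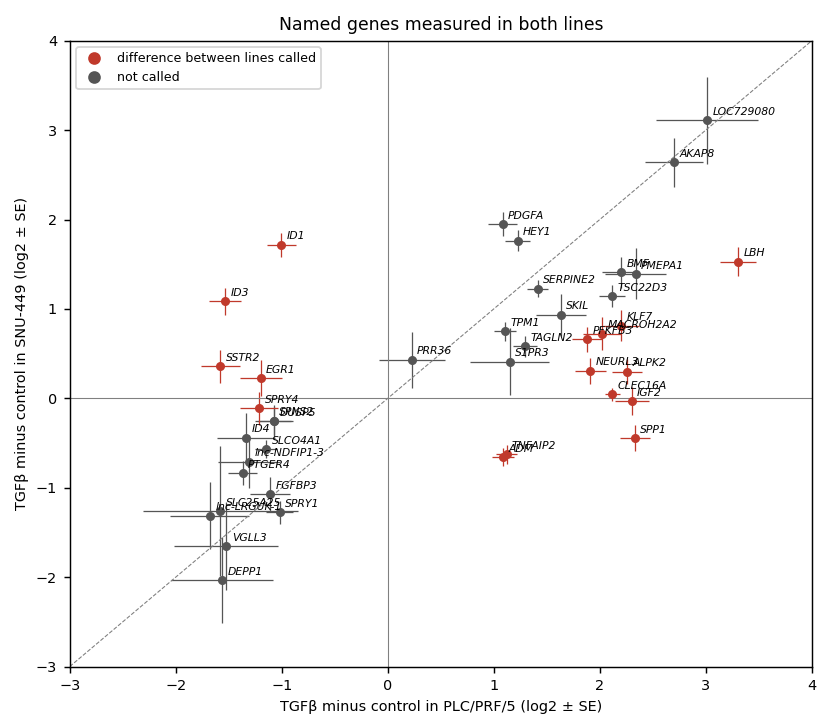
Log2 change on TGFβ in PLC/PRF/5 (horizontal) and in SNU-449 (vertical), each with its standard error, for the 41 genes named by the size of their change, as called list members or as markers that were well above background in a whole SNU-449 group. Red marks the 16 genes whose difference between the lines was called and the dashed line equal changes. *SPP1* lies at 2.33 and -0.44, and *ID1* and *ID3* lie in the quadrant of a fall in PLC/PRF/5 and a rise in SNU-449. *LBH* and *IGF2* were below background on the control arrays of PLC/PRF/5, so that their positions depend on the floor.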

How the data were processed

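Expression in both HCC lines was measured on 24 single-color Agilent arrays, 3 per group. The authors deposited each array's background-subtracted intensity (gProcessedSignal) from Agilent Feature Extraction (version 10.7.3.1 in the submitters' processing notes), and a set of normalized log2 values, used here only as an alternative. Their methods name GeneSpring and BRB-ArrayTools for normalization and class comparison. No probe was saturated, and 165 to 226 of 62976 spots per array were flagged. The number of arrays limits the precision.

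Here, control and flagged spots were left out, the spots of a probe were averaged, and each array was divided by its 75th percentile. Values below 5.70% of that percentile were set to it (-4.13 on the log2 scale) before the log2 was taken. This floor is where signals well above background begin, as a median of the arrays. Probes well above background on all arrays of at least 1 group of the fit were tested, and the one with the highest mean represented its gene. Genes were named by RefSeq accession for 31104 probes, by LNCipedia name for 10719 and not at all for 16378. limma 3.58.1 (lmFit and eBayes) in R 4.3.3 with data.table (version 1.17.8) was fitted to the 12 PLC/PRF/5 arrays (24 for the difference between lines) with 1 mean per group, over all spots and over inner spots. A gene below that limit on every array of 1 group has a fold that is a bound, set on each array against its own value there or the dimmest probe well above background, whichever was higher. Python 3.11.15 with pandas 2.3.3, numpy 2.4.6 and matplotlib 3.10.9 was used for loading and plots. The scripts were tested on simulated data.

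The replicate number is also the slide. Deviations from the group means of same-numbered control and TGFb arrays correlated at 0.17, 0.30 and 0.28. Over the PLC/PRF/5 arrays, the consensus correlation within a replicate was 0.0129 over all spots and 0.0188 over inner spots. The main fit did not use the pairing. The files hold no mean signal, so that the normexp alternative (offset 50) used the median signal and median background. Other alternatives were scaling, filters, the floor, the probe rule, the arrays in the fit, a plain t-test, the replicate block and leaving out arrays. Named genes are the 4 markers, the 10 largest called rises and falls over all and over inner spots, up to 5 bounds each way, called members of the lists and the 4 largest changes of each list. Members and lists were chosen with earlier results of these data known. Some items are not reported here.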

Additional observations from a re-analysis of the deposited data

Results flagged for a closer look

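The TGFβ change differed between the lines, by the test of the difference itself, for 410 genes. Among the named genes measured in both lines, PLC/PRF/5 exceeded SNU-449 by 2.77 for *SPP1*, 2.08 for *CLEC16A*, 1.96 for *ALPK2*, 1.75 for *ADM*, 1.75 for *TNFAIP2*, 1.60 for *NEURL3*, 1.39 for *KLF7*, 1.30 for *MACROH2A2* and 1.22 for *PFKFB3* on the log2 scale. The difference was -2.72 for *ID1*, -2.62 for *ID3*, -1.94 for *SSTR2*, -1.43 for *EGR1* and -1.10 for *SPRY4*. For *IGF2* and *LBH* it was fitted at 2.33 and 1.77, but both were below background on the control arrays of PLC/PRF/5, so that these values depend on the floor and are not exact sizes.

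The TGFβ change also differed without and with galunisertib for 199 genes over all spots and for 151 over inner spots. Outside the named genes, 58 of 5343 tested probes with no gene name were called for TGFβ against control.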

How the results depend on the processing

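The called genes numbered 183 over all spots and 112 over inner spots. They numbered 326 and 199 without scaling (300 higher and 26 lower, and 192 and 7), 98 and 47 with normexp, and 105 and 71 with a plain t-test. That test shared no spread between genes, unlike the random variance model of the authors' methods. It passed 166 and 100 genes at the same fold after Benjamini-Hochberg adjustment. Differences between lines (410) came to 198 with normexp and to 178 with the filter on all arrays. Those with galunisertib (199) came to 101 without scaling and 89 with normexp. The causes were not tested. Leaving out replicates gave 162 to 197 and, over inner spots, 97 to 117 genes, 332 to 430 for the lines and 136 to 225 for galunisertib. With the replicate block, 194 genes over all spots, 115 over inner spots, 408 for the lines and 199 for galunisertib were called, and with it as a random effect 183 and 113. The pairing changed no call of a named gene. *PRR36* turned from -1.82 to 0.23 in the fit to both lines and, over the fits that left out replicates, ranged from -2.09 to 0.21, the latter without control replicate 1, where its inner probe represents it. Over all spots, 3182 of the named genes' values under the alternatives kept the call or its absence, 99 lost and 27 gained the call. For genes neither called nor with an adjusted p below 0.05 in the main fit, a change of sign was not counted.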
